A study of Mus musculus with 22 samples.

Results

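Genes of the cell cycle and of DNA replication were examined in mouse connective tissue held stretched or shortened. The list named 35 genes by function: cyclins, cell cycle kinases and checkpoint proteins, chromosome and spindle proteins, the replicative helicase, nucleotide supply and inhibitors of cyclin-dependent kinases (CDKs). A probe had to be annotated to 1 gene only, and a gene with several such probes was read from the brightest one, by its mean over the 22 samples. Of the 35 genes 34 were measured, among 12393 genes on the array, and Ccnb1 was not analysed here. Of the 34, 15 had 1 such probe and 19 had several.

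The tissue was subcutaneous loose connective tissue, taken from the trunk of C57BL/6 males that weighed 19 to 24 g, with no allele or agent named. Each of 11 animals gave a stretched and a shortened piece, assigned at random. The 4 groups were 7 animals' tissue shortened or stretched in vivo and 4 other animals' tissue shortened or stretched ex vivo, so the shortened piece was the control of the stretched piece of the same animal. How strong the stretch was, how long it lasted and how long the ex vivo tissue was kept are not stated in the labels. The tissue was measured whole, with every cell type it held, so fewer cells of a type and less RNA per cell cannot be told apart.

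A dividing cell passes from G1, where D and E cyclins act with CDKs, through S phase, where the Mcm2 to Mcm7 helicase opens the DNA for copying, to mitosis, driven by A and B cyclins with Cdk1. Many mitotic genes are transcribed mainly in cycling cells, through promoter elements known as the cell cycle genes homology region (CHR) and the CCAAT box, while many replication genes carry binding sites of E2F factors. Fibroblasts of resting connective tissue divide rarely, and CDK inhibitors such as Cdkn1a (p21) and Cdkn1b (p27) hold cells in G1.

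Promoters of 5 members are shown, as examples of the mitotic genes and of the helicase genes that carry most of the values given here. Each runs from 250 bases before to 50 bases after the transcription start and is written 5′ to 3′ on the gene's strand, from RefSeq on build GRCm38.p6. Capitals mark matches to the CHR (TTTGAA or TTCGAA), to E2F words (TTTCCCGC, TTCCCGCC, TTTGGCGC or TTTCGCGC) and to the CCAAT box (CCAAT), searched on both strands. The E2F words can share letters with each other.
Top2a (chr11:99024140-99024439, minus strand): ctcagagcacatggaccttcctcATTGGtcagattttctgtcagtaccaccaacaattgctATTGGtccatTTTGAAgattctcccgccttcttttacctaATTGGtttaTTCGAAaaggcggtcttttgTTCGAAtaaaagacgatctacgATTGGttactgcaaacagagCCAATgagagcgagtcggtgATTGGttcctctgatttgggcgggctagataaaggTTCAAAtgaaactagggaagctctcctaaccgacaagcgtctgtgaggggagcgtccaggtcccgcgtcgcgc
Mki67 (chr7:135716330-135716629, minus strand): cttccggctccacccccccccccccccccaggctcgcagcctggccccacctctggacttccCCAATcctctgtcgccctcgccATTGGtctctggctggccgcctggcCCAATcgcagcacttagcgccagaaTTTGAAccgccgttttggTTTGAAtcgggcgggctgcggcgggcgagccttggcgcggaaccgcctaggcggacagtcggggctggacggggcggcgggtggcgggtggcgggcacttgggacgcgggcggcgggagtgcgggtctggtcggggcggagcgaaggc
Ccnb2 (chr9:70421505-70421804, minus strand): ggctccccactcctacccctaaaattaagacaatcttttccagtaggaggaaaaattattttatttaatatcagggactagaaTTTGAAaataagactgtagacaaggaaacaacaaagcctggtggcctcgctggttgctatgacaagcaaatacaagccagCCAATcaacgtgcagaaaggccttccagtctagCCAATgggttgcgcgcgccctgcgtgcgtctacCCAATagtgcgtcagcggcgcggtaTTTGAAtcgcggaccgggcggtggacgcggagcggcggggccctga
Mcm5 (chr8:75109259-75109558, plus strand): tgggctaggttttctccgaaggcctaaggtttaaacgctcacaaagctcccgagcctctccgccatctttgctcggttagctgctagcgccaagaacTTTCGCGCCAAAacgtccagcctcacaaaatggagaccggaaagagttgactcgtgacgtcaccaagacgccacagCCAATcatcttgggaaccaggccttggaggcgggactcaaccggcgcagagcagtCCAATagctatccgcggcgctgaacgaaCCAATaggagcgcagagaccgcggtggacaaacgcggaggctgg
Mcm6 (chr1:128359656-128359955, minus strand): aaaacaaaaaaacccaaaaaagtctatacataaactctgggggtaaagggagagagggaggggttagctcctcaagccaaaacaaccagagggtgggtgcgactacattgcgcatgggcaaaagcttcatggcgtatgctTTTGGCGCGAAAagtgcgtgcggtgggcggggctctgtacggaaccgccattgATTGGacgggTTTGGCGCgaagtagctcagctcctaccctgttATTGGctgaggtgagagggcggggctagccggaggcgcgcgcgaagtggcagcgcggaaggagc

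RefSeq promoters were at hand for 27 of the 34 members, 30 promoters in all, since a gene can have several. A CHR match stood in 12 of 14 promoters of the mitotic cyclins, kinases, checkpoint, chromosome and spindle members (85.7%), against 19.2% of all 32851 promoters of the same length. A CCAAT box stood in 13 of these 14 (92.9%), against 37.4% of all promoters. An E2F word stood in 4 of 6 promoters of the helicase genes (66.7%), against 3.49% of all. None of the 3 promoters of the CDK inhibitors held a CHR or an E2F word. A match describes the letters only.

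Values are the deposited log2 signals, and differences are log2 differences with the standard error (SE) of the limma fit. A call means an adjusted p (Benjamini-Hochberg over all 22626 tested probes) under 0.05. The arrays had medians of 7.28 to 7.41 for in vivo and of 6.85 to 6.90 for ex vivo tissue, so the settings appear to have been normalized separately. In the comparison of the settings each array was therefore first centred on its median, and setting and array processing cannot be told apart. The label of the tissue was checked on 11 fibroblast markers, whose mean as deposited was 12.47 to 12.92 in vivo and 10.97 to 11.50 ex vivo. In vivo the means of other markers were 11.48 to 12.11 for macrophages, 8.57 to 12.17 for adipocytes and 5.19 to 12.34 for skeletal muscle. The check thus shows fibroblast RNA and does not settle the tissue. Some libraries stood apart. The signal of the 3′ minus that of the 5′ Gapdh control probe, a sign of RNA quality, was 0.866 to 3.61 in animals 4 to 7 in vivo, against 0.111 to 0.272 in animals 1 to 3. Ex vivo it was 0.912 in stretched tissue of animal 1 and at most 0.187 in the other samples. The mean of 15 skeletal muscle markers was 4.93 and 5.37 higher in the stretched than in the shortened piece of ex vivo animals 3 and 4, and -0.46 and 0.21 in animals 1 and 2. In vivo it was 5.66 and 3.93 higher in animals 5 and 6, 1.00 to 1.88 higher in animals 2, 3 and 7, and -0.02 and -0.05 in animals 1 and 4.

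**Figure D1:**
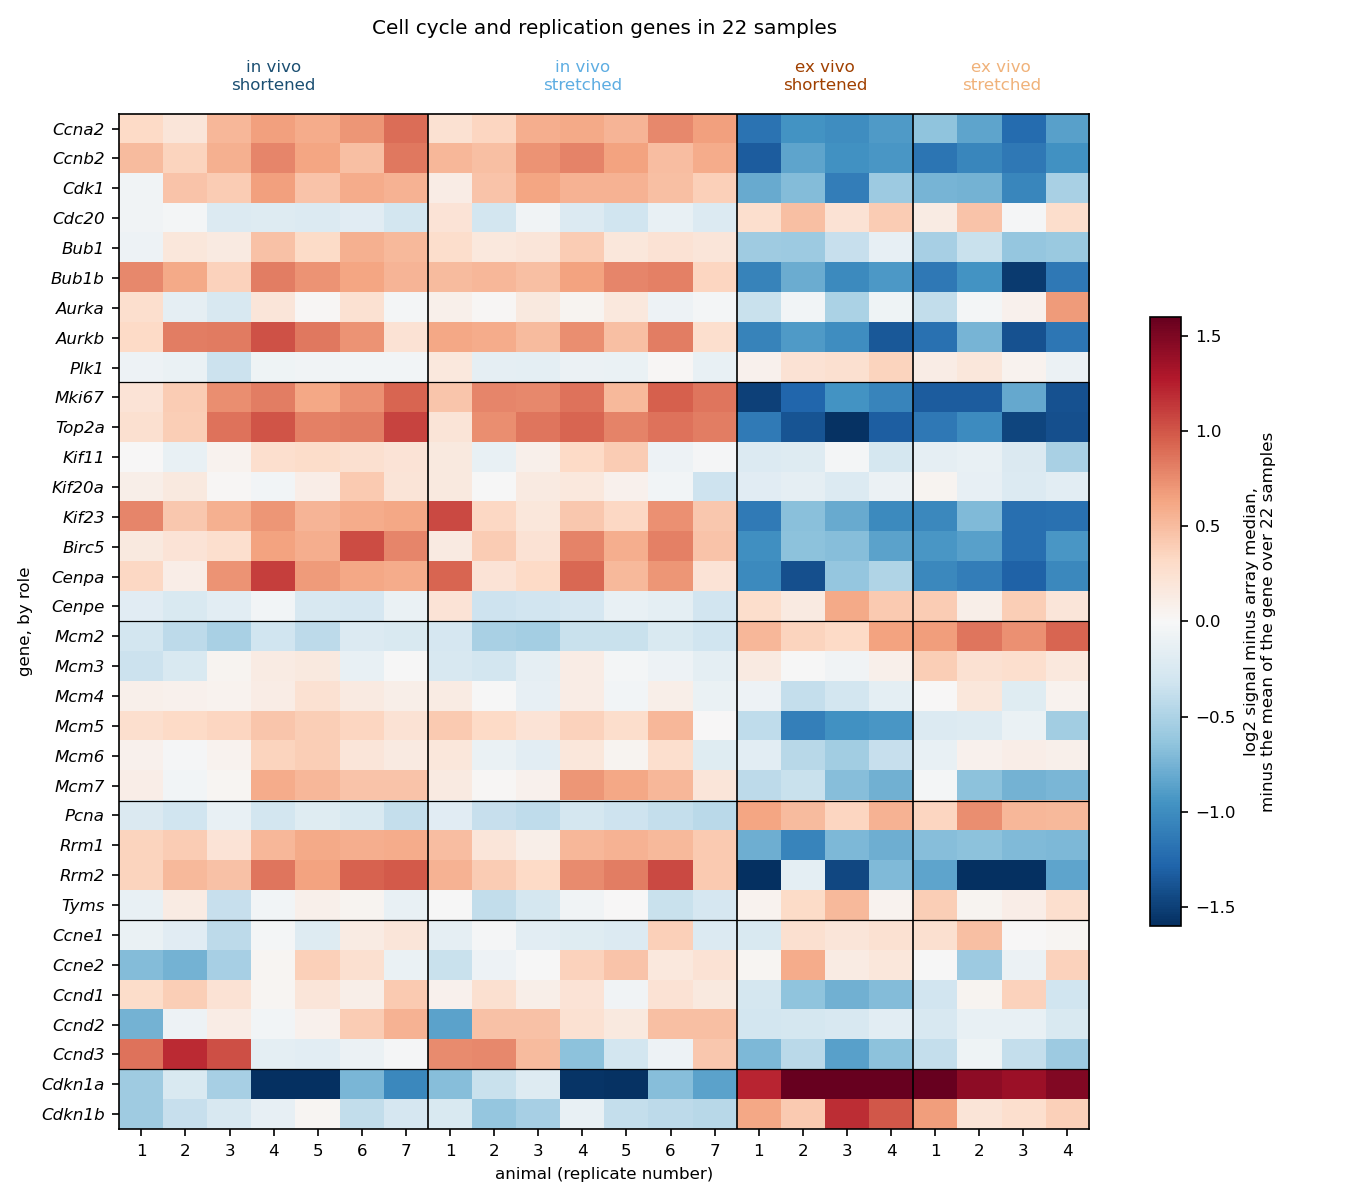
Each member (rows, by role) in each of the 22 samples (columns, by group), as the centred log2 signal minus the member's mean over all samples, with the colour scale clipped at its ends. Most mitotic members were lower in all 8 ex vivo samples, and Cdkn1a was higher in all of them.

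In shortened tissue most mitotic and chromosome genes were lower ex vivo than in vivo, and both CDK inhibitors were higher. In all, 8 members were higher and 21 lower ex vivo than in vivo, of 34, and among all probes 66.5% were called, 36.9% higher and 29.6% lower. The median difference was -0.63 over the members and -0.01 over all genes. Differences below -1 were found in 14 members, 10 of them among the 17 mitotic, chromosome and spindle members, against 12.2% of all genes. After centring, 20 members lay wholly below the in vivo samples, 7 wholly above, and 7 overlapped, while 52.2% of all probes did not overlap, 22.8% with ex vivo below and 29.4% with ex vivo above.

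Genes of mitosis made up most of the lower members: 13 of the 17 fell, 3 rose and 1 did not pass. Top2a, the topoisomerase that untangles chromosomes before they separate, had signals of 6.24 (lowest), 6.74 (median) and 7.02 (highest) in in vivo shortened tissue. Ex vivo shortened tissue gave 4.40, 4.12, 3.91 and 4.17, all below every in vivo sample. Its centred difference was -2.10 ± 0.16 (adjusted p = 1.8e-07), a ratio of 0.233 to in vivo. A second, dimmer probe of Top2a with a mean of 3.88 over all samples gave a difference of 0.07, so the probes of this gene disagree. Mki67, the proliferation antigen Ki-67 that coats mitotic chromosomes, had signals of 6.17, 6.61 and 6.83 (lowest, median, highest) in vivo. Ex vivo it gave 4.00, 4.20, 4.50 and 4.40, again with no overlap. Mki67 differed by -1.83 ± 0.15 (adjusted p = 2.9e-07).

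Among the 9 mitotic cyclins, kinases and checkpoint genes 6 were lower, 2 higher and Aurka did not pass (-0.29, adjusted p = 0.069). Ccnb2, a B cyclin, read 5.64, 5.85 and 6.06 (lowest, median, highest) in in vivo shortened tissue and 3.49, 3.94, 3.80 and 3.84 ex vivo, a difference of -1.61 ± 0.12 (adjusted p = 1.4e-07). Ccna2, the A cyclin of S phase and mitosis, read 6.30, 6.67 and 6.92 in vivo and 4.45, 4.65, 4.59 and 4.68 ex vivo. Both cyclins were lower in every ex vivo sample, and Ccna2 differed by -1.56 ± 0.13, with -1.53 from its second probe. Cdk1, their kinase, read 5.65, 6.18 and 6.30 in vivo and 4.45, 4.53, 4.11 and 4.63 ex vivo. The Cdk1 difference was -1.23 ± 0.14 (adjusted p = 7.1e-06). Bub1b, a kinase-like protein of the spindle checkpoint, had the smallest adjusted p of the members (3.9e-08). Its signals of 6.01, 6.20 and 6.34 in vivo faced 4.06, 4.30, 4.05 and 4.16 ex vivo, a difference of -1.58 ± 0.10. Aurkb, the kinase of the chromosomal passenger complex, differed by -1.77 ± 0.16, and its second probe by -1.36. Kif23, a kinesin of the central spindle, differed by -1.51 ± 0.11, and its dimmer probes by -0.97 and -0.15 (the latter not called, adjusted p = 0.153). The other mitotic members that fell had differences from -1.47 (Cenpa, the centromeric histone H3 variant) to -0.30 (Kif20a, a kinesin of cytokinesis).

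The 3 mitotic members that were higher ex vivo, named after their values were seen, were Cenpe, Cdc20 and Plk1. Cenpe is a kinetochore kinesin, Cdc20 activates the anaphase-promoting complex and Plk1 is a mitotic kinase. They differed by 0.54, 0.52 and 0.34, and each rests on the centring. Without it Cenpe differed by 0.08, Cdc20 by 0.05 and Plk1 by -0.13. The dimmer probes of Cdc20 gave 0.04 and -0.46. Second probes of Bub1 (0.56) and Kif11 (0.43) also went against the probe used, which gave -0.71 and -0.32. Cenpe (mean signal 2.60) and these second probes of Bub1 (2.74) and Kif11 (3.86) were dim. Genes with a mean signal under 4 had a median difference of 0.24 after centring. Among them 0.636% lay below -1, against 12.2% of all genes. The promoters of Cdc20 and Plk1 hold a CHR match, as do those of Top2a, Mki67 and Ccnb2 printed above.

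**Figure D2:**
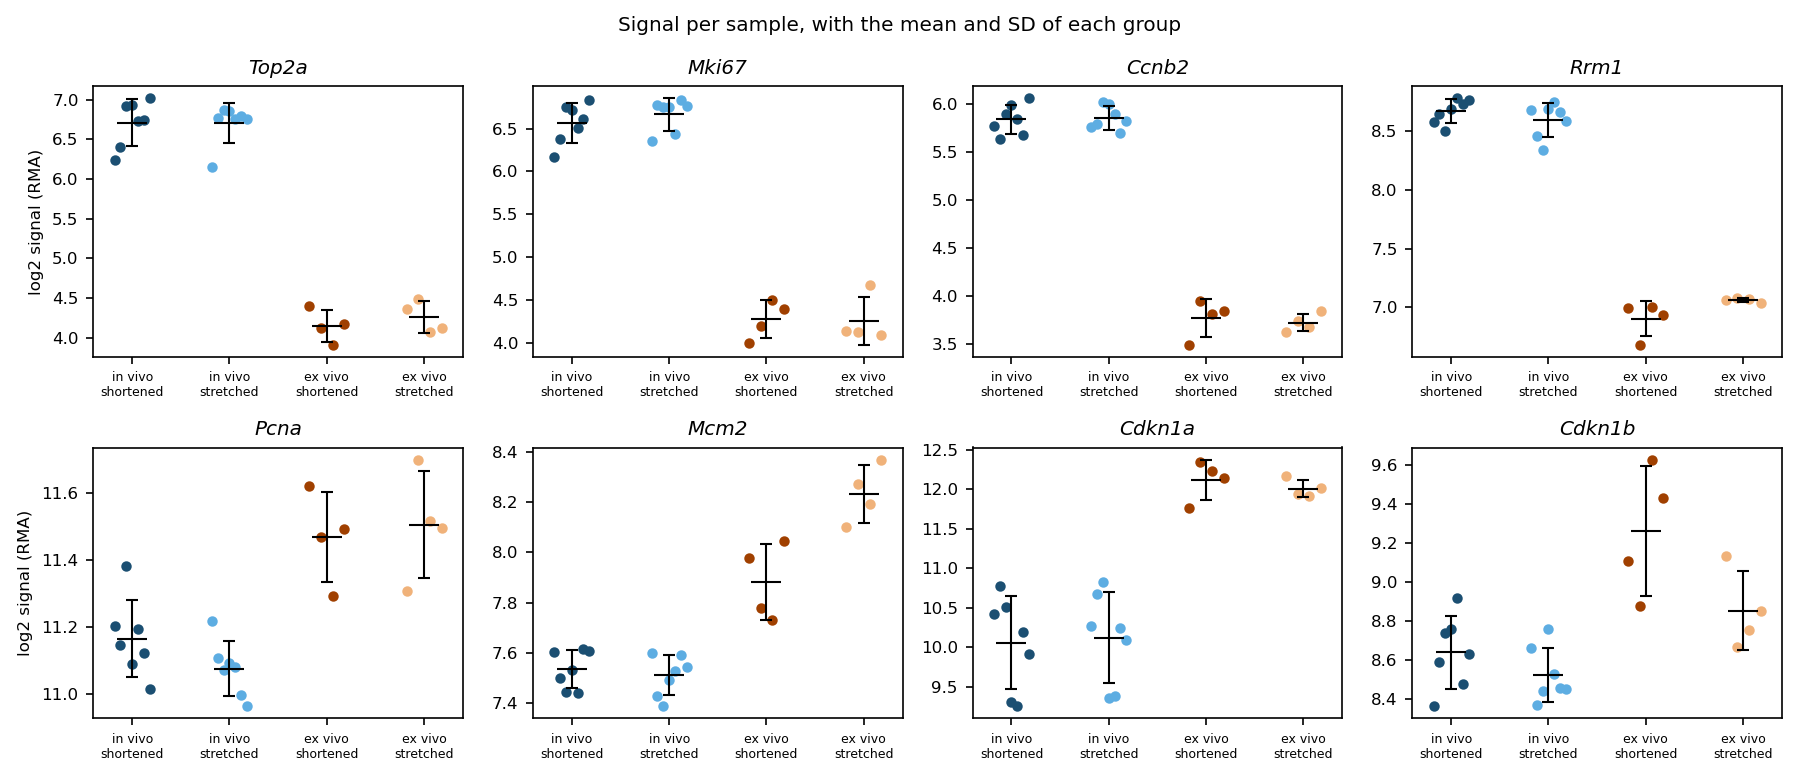
Log2 signal of Top2a, Mki67, Ccnb2, Rrm1, Pcna, Mcm2, Cdkn1a and Cdkn1b in each sample (points) of the 4 groups, with the mean and SD of each group. Top2a, Mki67, Ccnb2 and Rrm1 lie lower in both ex vivo groups and Cdkn1a lies higher.

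The replication genes were split. Of the 6 helicase subunits 4 were lower and 1 higher ex vivo, with a median of -0.45. Mcm5 read 6.09, 6.25 and 6.31 (lowest, median, highest) in in vivo shortened tissue and 5.05, 4.34, 4.45 and 4.48 ex vivo, a difference of -1.18 ± 0.12 (adjusted p = 2.6e-06). Mcm7, Mcm6 and Mcm4 differed by -0.86, -0.55 and -0.34. Second probes of Mcm6 and Mcm4 gave 0.58 and 0.55, and the other probes of Mcm7 gave -0.86, -0.23 and 0.23 (the last adjusted p = 0.34), so the probes of these genes disagree. Mcm2 was 0.81 ± 0.10 higher, with signals of 7.44 to 7.61 in vivo and 7.73 to 8.05 ex vivo, but its second probe gave 0.20 and did not pass (adjusted p = 0.257). Mcm3 did not pass (0.10), and its other probes gave 0.20 to 1.75.

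Rrm1, the large subunit of ribonucleotide reductase, which makes the building blocks of DNA, read 8.50, 8.69 and 8.78 in vivo and 6.99, 6.68, 7.00 and 6.93 ex vivo. It differed by -1.31 ± 0.10 (adjusted p = 2.2e-07), and Rrm2, the small subunit, by -1.69 ± 0.25. The second probe of Rrm1 gave -0.50 (adjusted p = 0.031), and those of Rrm2 -0.75 and -1.23. Pcna, the sliding clamp of the DNA polymerases, went the other way. Its signals were 11.02, 11.15 and 11.38 in vivo and 11.62, 11.47, 11.29 and 11.49 ex vivo, which overlap as deposited. After centring Pcna was 0.77 ± 0.07 higher ex vivo (adjusted p = 8.2e-07). Tyms, thymidylate synthase, differed by 0.29, and by -0.17 without centring.

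Both CDK inhibitors were higher ex vivo. Cdkn1a read 9.26, 10.20 and 10.77 (lowest, median, highest) in in vivo shortened tissue and 11.77, 12.35, 12.23 and 12.14 ex vivo, each ex vivo sample above each in vivo sample. Its difference of 2.52 ± 0.26 (adjusted p = 2.4e-06) was a ratio of 5.75, and its second probe gave 2.29. Cdkn1b read 8.36, 8.63 and 8.92 in vivo and 9.11, 8.88, 9.63 and 9.43 ex vivo, overlapping as deposited. It differed by 1.08 ± 0.15 after centring, and its second probe by 1.42.

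Among the G1 cyclins 2 of 5 were lower and none was higher past the threshold. Ccnd1, the cyclin that couples growth signals to CDK4 and CDK6, read 9.58, 9.89 and 10.02 in vivo and 8.87, 8.49, 8.34 and 8.41 ex vivo. It differed by -0.83 ± 0.11 in shortened tissue (adjusted p = 2.1e-05). Its other probes gave -0.39 (adjusted p = 0.0495) and -0.25 (adjusted p = 0.40). In stretched tissue the difference between the settings on the brightest probe was -0.19 (adjusted p = 0.221). Ccnd3 differed by -1.04 ± 0.28. Its in vivo values split by animal: in shortened tissue 10.84, 11.19 and 11.07 in animals 1 to 3, and 9.77, 9.76, 9.82 and 9.91 in animals 4 to 7, the set with the larger Gapdh difference. Ccne1, Ccne2 and Ccnd2 did not pass, and probes of Ccnd2 reached 2.58.

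In stretched tissue 24 members were called between the settings, 8 higher and 16 lower, where 63.5% of probes were called. Against in vivo animals 1 to 3 alone, whose Gapdh difference was close to that of the ex vivo samples, 28 members were called, 8 higher and 20 lower, where 66.9% of probes were called. There Top2a differed by -1.86, Mki67 by -1.65 and Cdkn1a by 2.06. The 3′ minus 5′ difference of the Actb control was not matched in these samples. It was 0.33 to 0.37 in shortened tissue of in vivo animals 1 to 3 and 0.74 to 0.98 in ex vivo shortened tissue. Cell type markers moved with the setting too: 9 of 11 macrophage markers (median -2.70), 9 of 11 fibroblast markers (median -1.02) and 6 of 8 adipocyte markers (median -1.92) were lower ex vivo. The mean of the macrophage markers was 11.6 to 12.1 in in vivo shortened and 8.49 to 9.52 in ex vivo shortened tissue. The part of these cell types in the members' differences was not tested.

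Other genes of the cell cycle were read from 5 lists, and their calls went both ways. Among all probes 36.9% were called higher and 29.6% lower in this comparison of shortened tissue. Of 43 other mitosis genes 9 were higher and 23 lower ex vivo (median -0.32), and of 45 other replication genes 13 were higher and 18 lower (median -0.06). Of 17 transcription factors and RB family members 8 were higher and 5 lower. Of 24 interphase CDKs, other inhibitors and brakes 7 were higher and 6 lower. Of 16 p53 targets 9 were higher and 3 lower (median 0.50). The 4 genes with the smallest p were Gas6, a growth arrest-specific ligand (-2.98 ± 0.11), Gadd45a, a damage-inducible growth arrest gene (3.89 ± 0.17), Sesn1, a sestrin (-3.00 ± 0.14), and Chek1, the checkpoint kinase of stalled replication (2.84 ± 0.15). Gadd45a had signals of 5.91 to 6.84 in vivo and 9.69 to 9.95 ex vivo. Chek1 had 3.42 to 3.85 in vivo and 5.77 to 6.56 ex vivo. Named after their values were seen, Myc (2.00), E2f3 (1.83) and Cks2 (2.38), a subunit of CDK complexes, were higher, and Anln (-2.25), a scaffold of the cytokinetic ring, was lower.

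**Figure D3:**
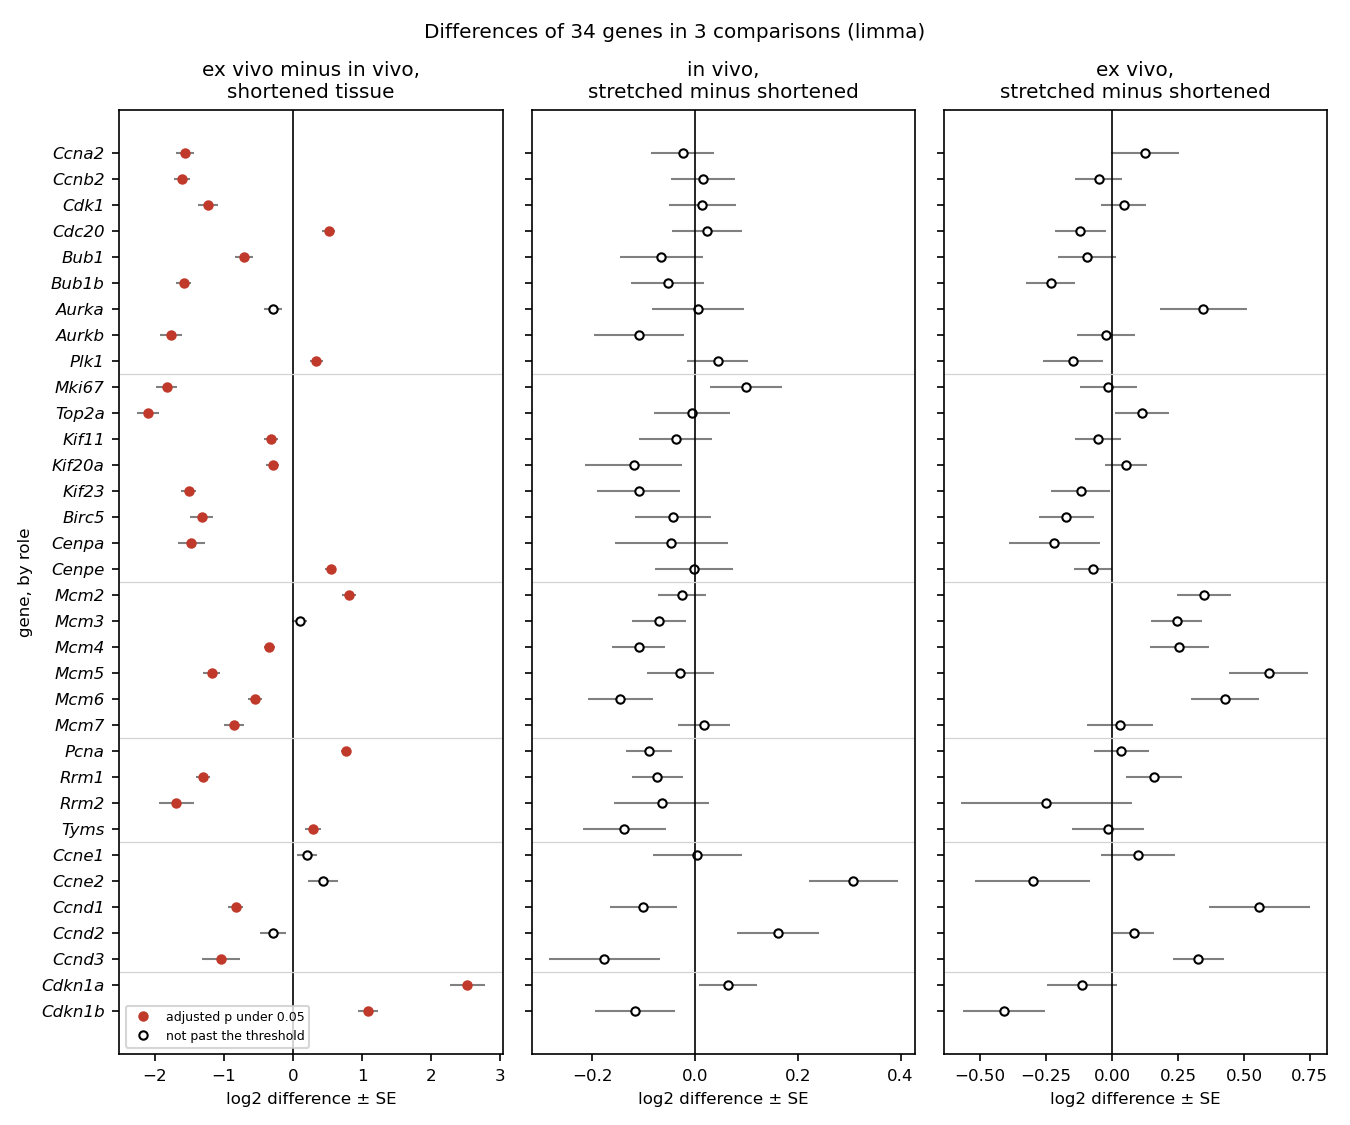
Log2 difference of each member with its SE (bars) for ex vivo minus in vivo shortened tissue and for stretched minus shortened tissue in vivo and ex vivo, each panel with its own x axis. Between settings the differences run from -2.10 to 2.52, in vivo they stay between -0.18 and 0.31, and ex vivo between -0.41 and 0.59.

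Stretch in vivo left every member without a call. Of the 34 members, 0 were called, among 0% of all probes, and 2 had an unadjusted p under 0.05 in limma, against 19.3% of probes. The median difference was -0.04 (all genes -0.01), with 11 members higher and 23 lower and a range from -0.18 to 0.31. Within pairs the median over the members was -0.19 in animal 7 and -0.04 to 0.06 in the other animals. Animal 7 also had the most unequal pair in RNA quality, with a Gapdh difference of 2.96 in shortened and 0.866 in stretched tissue. Without animal 7 still 0 members were called, among 0% of probes, and the part of RNA quality was not tested. No member moved the same way in all 7 pairs, where 1.34% of probes were higher and 3.68% lower in every pair. Ccne2, an E cyclin of the entry into S phase, had the smallest p. Its signals were 3.16, 3.74 and 4.23 (lowest, median, highest) in shortened and 3.50, 4.00 and 4.32 in stretched tissue, which overlap, and the paired difference was 0.31 ± 0.09 (n = 7, limma adjusted p = 0.17). Mcm6 read 8.97, 9.08 and 9.31 in shortened and 8.72, 8.98 and 9.17 in stretched tissue, a difference of -0.14 ± 0.06. Mcm4 differed by -0.11, Ccnd2 by 0.16 and Pcna by -0.09. Cell type markers differed between the pieces too. All 15 muscle markers had a positive difference (median 2.21), with an unadjusted p under 0.05 for 14. So had all 8 adipocyte markers (median 0.50) and 8 of 9 endothelial markers (median 0.38), with such a p for 4 and 3 of them. All 11 macrophage markers (median -0.15), 11 fibroblast markers (median -0.08) and 5 Schwann cell markers (median -0.35) had a negative one, with such a p for 8, 6 and 4. None was called. Without animals 5 and 6 Ccne2 differed by 0.43 and Mcm6 by -0.15, and with the muscle markers as a covariate by 0.46 and -0.10. Still 0 members were called in these fits, and the part of the other cell types was not tested.

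The proliferation markers were close in the stretched and shortened pieces in vivo. Mki67 read 6.17 to 6.83 in shortened and 6.35 to 6.84 in stretched tissue, a difference of 0.10 ± 0.07, and Top2a differed by -0.01 ± 0.07. Aurkb differed by -0.11 ± 0.09, Ccnd1 by -0.10 ± 0.06, Cdkn1a by 0.06 ± 0.06 and Cdkn1b by -0.12 ± 0.08. These sizes stood against SEs of about their own size, so a shift of that size could not be detected with 7 pairs. The in vivo spread of Cdkn1a lay between animals, not between pieces: animals 4 and 5 read 9.32 and 9.26 in shortened and 9.36 and 9.38 in stretched tissue, below all others in both groups.

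Other cell cycle genes were not called in vivo either, 0 in each of the 5 lists. The smallest p values belonged to Cdkn1c, the CDK inhibitor p57 (-0.35 ± 0.08), Tob1, an antiproliferative protein (0.47 ± 0.11), Ccng1, a cyclin and p53 target (0.28 ± 0.07), and Gas1, a growth arrest-specific membrane protein (-0.31 ± 0.09). None passed over all probes (limma adjusted p = 0.17 for each).

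Stretch ex vivo also gave 0 calls among the members, against 0% of all probes. In limma 8 of 34 members had an unadjusted p under 0.05, 6 higher and 2 lower in stretched tissue, against 11.1% of probes. The median was 0.01 over the members and 0.01 over all genes, with 17 members higher and 17 lower. The helicase stood at the upper end. On their brightest probes all 6 subunits had a positive difference, with a median of 0.30, and Mcm2, Mcm3, Mcm4, Mcm5 and Mcm6 were higher in the stretched piece of each of the 4 animals, as were Rrm1 and Ccnd3. Among all probes 10.8% were higher and 9.32% lower in every pair.

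Mcm5 had signals of 5.05, 4.34, 4.45 and 4.48 in shortened tissue of animals 1 to 4 and 5.22, 5.22, 5.36 and 4.89 in their stretched tissue. The groups overlap only where the shortened piece of animal 1 (5.05) lies above the stretched piece of animal 4 (4.89). The pairs differed by 0.18, 0.88, 0.91 and 0.41. The mean difference was 0.59 ± 0.15 (n = 4, limma adjusted p = 0.36). Mcm6 read 8.35, 8.05, 7.92 and 8.10 in shortened and 8.38, 8.55, 8.62 and 8.58 in stretched tissue, a difference of 0.43 ± 0.13. Mcm2 read 7.98, 7.78, 7.73 and 8.05 in shortened and 8.10, 8.27, 8.19 and 8.37 in stretched tissue. Mcm2 differed by 0.35 ± 0.10. Mcm4 (0.26 ± 0.11) and Mcm3 (0.24 ± 0.10) were closer, and Mcm7 differed by 0.03 ± 0.12. Second probes of Mcm2, Mcm4 and Mcm6 gave 0.60, 0.38 and 0.33. The other probes of Mcm3 ran from -0.001 to 0.26 and those of Mcm7 from -0.11 to 0.06, so a positive difference in all 6 subunits holds for the brightest probes only.

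Among the G1 regulators, Ccnd1 read 8.87, 8.49, 8.34 and 8.41 in shortened and 8.83, 9.17, 9.53 and 8.82 in stretched tissue, higher in the stretched piece of 3 of 4 animals. It differed by 0.56 ± 0.19 (limma adjusted p = 0.40), and Ccnd3 by 0.33 ± 0.10. Cdkn1b read 9.11, 8.88, 9.63 and 9.43 in shortened and 9.13, 8.67, 8.76 and 8.85 in stretched tissue. It differed by -0.41 ± 0.15, with a second probe at -0.08, and Cdkn1a by -0.11 ± 0.13, with a second probe at -0.35. The pairs that differed most in Cdkn1b, animals 3 and 4, were the ones whose stretched pieces held more muscle RNA. Without animals 3 and 4 Cdkn1b differed by -0.09, Ccnd1 by 0.32, Mcm6 by 0.27 and Mcm5 by 0.53. With the mean of the muscle markers as a covariate they differed by -0.11, 0.33, 0.27 and 0.52. The muscle difference was large in animals 3 and 4 only, so the covariate fit nearly repeats leaving these animals out. The part of muscle in these differences was not tested.

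Mitotic members went both ways ex vivo. Among the 9 mitotic cyclins, kinases and checkpoint genes 3 were higher and 6 lower in stretched tissue (median -0.05), and among the 8 chromosome and spindle genes 2 were higher and 6 lower (median -0.06). Bub1b was lower in every pair, with shortened values of 4.06, 4.30, 4.05 and 4.16 and stretched values of 3.95, 4.14, 3.60 and 3.96, a difference of -0.23 ± 0.09. Aurka, a kinase of the spindle poles, named after its values were seen, had the largest difference of these 17 members, 0.35 ± 0.17 (limma adjusted p = 0.49). Its pairs differed by -0.05, 0.02, 0.63 and 0.79, the larger values in animals 3 and 4, whose stretched pieces held more muscle RNA. The part of muscle in the Aurka difference was not tested. Birc5, survivin, differed by -0.17 ± 0.10, Mki67 by -0.01 ± 0.11 and Top2a by 0.11 ± 0.10. Pcna differed by 0.04 ± 0.10 and Rrm1 by 0.16 ± 0.11. In the 5 wider lists 0 genes were called, and the smallest p values belonged to Phlda3, a p53 target (0.43 ± 0.09), Ccng2, a cyclin of cell cycle arrest (-0.85 ± 0.20), Stmn1, a microtubule destabiliser (-0.63 ± 0.15), and Gas2 (-0.48 ± 0.12).

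**Figure D4:**
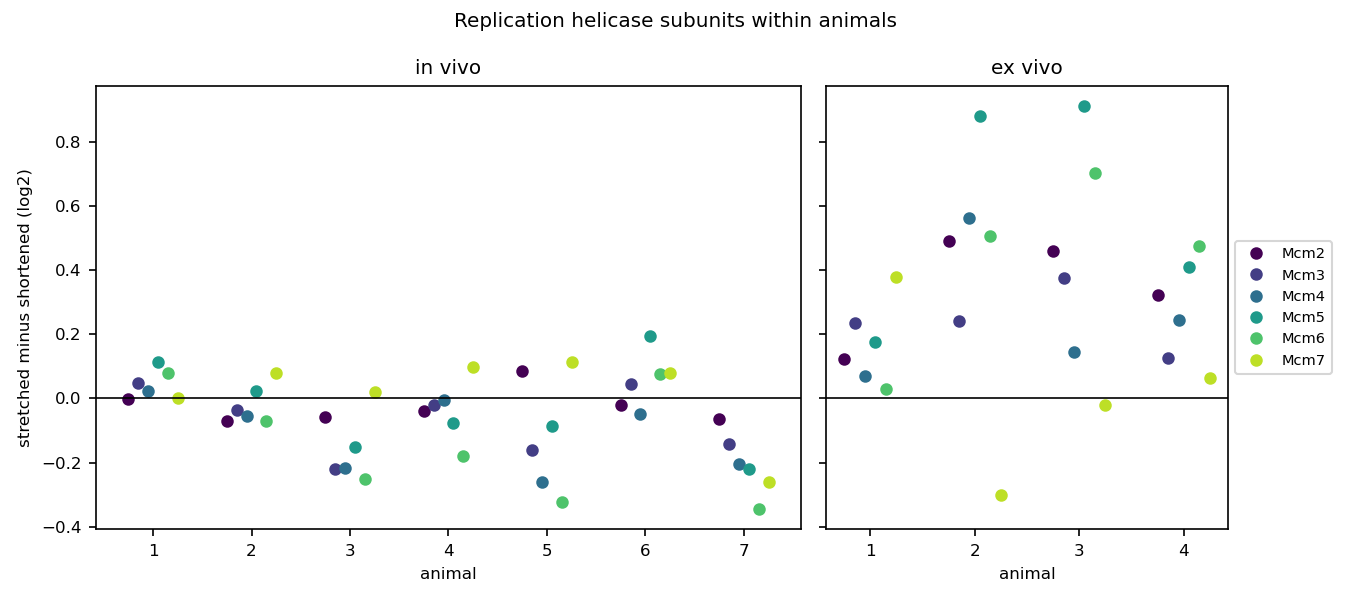
Stretched minus shortened log2 signal of each helicase gene (points) in each animal (x axis), in vivo (left) and ex vivo (right). Ex vivo the points of Mcm2, Mcm3, Mcm4, Mcm5 and Mcm6 lie above 0 in all 4 animals, and in vivo they lie on both sides of 0.

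Whether the stretch effect differed between the settings was tested directly on all 22 samples. Of the 34 members 0 were called, against 0.177% of probes (0.0486% higher and 0.128% lower), and 9 had an unadjusted p under 0.05 in limma, 8 with the larger effect ex vivo, against 15.3% of probes. The smallest adjusted p values belonged to helicase genes: Mcm6 with a difference of effects of 0.57 ± 0.13 (adjusted p = 0.083), Mcm5 with 0.62 ± 0.15 (0.090) and Mcm2 with 0.37 ± 0.09 (0.094). Ccnd1 followed with 0.66 ± 0.18 (0.12) and Mcm3 with 0.31 ± 0.09 (0.13). Without ex vivo animal 1, whose stretched array had the larger Gapdh difference, 4 members passed, Mcm6, Mcm5, Ccnd1 and Mcm2 (adjusted p = 0.013 to 0.021), where 2.93% of probes were called. Animal 1 also had the smallest pair difference of the ex vivo animals in each of these genes, such as 0.03 in Mcm6 and -0.04 in Ccnd1. With any other animal left out 0 members passed, also without ex vivo animal 4, where 1.46% of probes were called. With array weights Mcm2, Mcm5 and Mcm6 passed, where 1.46% of probes were called. With all 22 samples in 1 fit the same 3 genes passed for stretch ex vivo (adjusted p = 0.021 to 0.047), where 2.92% of probes were called.

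Proliferation markers had small differences of effect, -0.11 ± 0.13 for Mki67 and 0.12 ± 0.13 for Top2a, as had Pcna with 0.13 ± 0.10. The CDK inhibitors differed by -0.18 ± 0.14 (Cdkn1a) and -0.29 ± 0.17 (Cdkn1b). In the wider lists 0 genes were called. The smallest p values belonged to Ccng2 (-0.92 ± 0.18, adjusted p = 0.063), Cdc45, a partner of the helicase (-0.48 ± 0.11), Pole2, a subunit of a DNA polymerase (0.45 ± 0.12), and Prim2, a subunit of the primase (0.41 ± 0.12).

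The comparisons share samples. The ex vivo shortened pieces are the control of the ex vivo stretch and are also compared with in vivo tissue, so a low value there counts in both. Mcm5 differed by -1.18 between the settings in shortened tissue and by -0.57 in stretched tissue, Mcm6 by -0.55 and 0.01, and Mcm4 by -0.34 and 0.01. Ordered by group median, Mcm5 was 6.25 in vivo shortened, 6.22 in vivo stretched, 5.22 ex vivo stretched and 4.46 ex vivo shortened. The in vivo groups overlap, though animal 7 in stretched tissue (5.87) lies below every shortened sample. Ex vivo the groups overlap only where the shortened piece of animal 1 lies above the stretched piece of animal 4. Probes for 15 genes of other organs had group means between 2.64 and 6.71, and the files hold no detection call. Whether the members with low signals, such as Cenpe, and Top2a, Mki67 and Mcm5 ex vivo, were above background was therefore not settled.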

How the data were processed

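Total RNA of 22 pieces of mouse connective tissue, extracted with Tri-Reagent, was labelled as biotin cRNA and measured on arrays. The deposited values are log2 signals, which the authors made with RMA from the affy package, per the submitters' processing notes, with versions not given in the sources used here. RMA corrects background, normalizes quantiles and summarises each probe set. Samples were grouped by title. Of 22690 probes 64 control probes were left out. Of the 22626 tested, 20380 carried 1 gene symbol, 691 several and 1555 none.

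Every tested probe entered the linear models of limma 3.58.1 (lmFit, eBayes with a mean-variance trend, R 4.3.3), and p-values were adjusted by Benjamini-Hochberg with a threshold of 0.05. Stretch was fitted apart in vivo and ex vivo, with animals as blocks. Whether its effect differed was fitted on all samples with 11 blocks. The settings were compared in shortened tissue after each array was centred on its median, without blocks. The pairing comes from the series' within-animal design. Deviations of same-numbered samples correlated with r of 0.385 to 0.867 in vivo and 0.109 to 0.284 ex vivo. In in vivo animals 5 and 7 and ex vivo animals 1 and 2 the shortened sample correlated more with another animal's stretched sample. The fit was tested on simulated data. No 2 samples held identical values. The number of arrays limits the precision.

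The members, the 5 lists of other cell cycle genes and the tests were chosen with earlier results of these data known. Named in each comparison were the members past the threshold (the 12 with the smallest p where more passed, or the smallest p up to 5 where fewer than 5 passed), the member with the smallest p of each role in each stretch comparison, Mki67, Top2a, Pcna, Ccnd1, Cdkn1a and Cdkn1b, and 4 genes of the lists. Alternatives changed normalization, centring, filter, trend, robust eBayes, array weights, threshold, probe choice, block, samples fitted together and a muscle covariate, and left out each animal. Leaving out in vivo animals 5 and 6 or ex vivo animals 3 and 4, and comparing in vivo animals 1 to 3 alone with ex vivo tissue, were chosen after seeing the data.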

Additional observations from a re-analysis of the deposited data

Results flagged for a closer look

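In each of the 136 groups of values (34 members in 4 groups) the highest and lowest samples were compared with the others. In 10 groups 1 sample stood farther from the nearest of the others than Dixon's 95% critical value allows, and chance gives about 1 in 20 such groups. In vivo shortened tissue held 2: Cdk1 was lowest in animal 1 (5.65) and Plk1 lowest in animal 3 (5.38). In vivo stretched tissue of animal 1 held 4, with Top2a (6.16) and Ccnd2 (9.98) lowest and Plk1 (5.80) and Cenpe (2.97) highest, and in animal 7 Mcm5 was lowest (5.87). Ex vivo, Mki67 was highest in stretched tissue of animal 3 (4.68), Mcm7 highest in stretched tissue of animal 1 (9.08) and Ccnd2 highest in shortened tissue of animal 4 (10.22). No member moved in opposite directions in every pair of the settings.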

How the results depend on the processing

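The pairs come from 11 animals, 4 of them ex vivo, so small shifts stay within the error, and no detection calls show which dim probes lay above background. Without the replicate block 0 members were called in each stretch comparison and in their difference, with medians of -0.04 in vivo, 0.01 ex vivo and 0.02 for the difference. For stretch ex vivo, 3 members were called with all 22 samples in 1 fit, and the median was 0.20 over probes with a mean of at least 6. For the difference of effects, 3 were called with array weights, 3 at a threshold of 0.10 and 0 to 4 with each animal left out, and the median was 0.18 over probes with a mean of at least 6. Between settings, 12 of the 14 members left by that filter were called, where 70.0% of the probes that passed it were. The median between settings was -1.09 without centring, -0.45 with the filter, -0.13 from second probes, -0.27 from the mean over probes, -0.37 in stretched tissue and -0.45 against in vivo animals 1 to 3 only. The cause was not tested. Differences near 0 changed sign in several settings. In vivo, Top2a gave 0.026 with array weights, 0.079 in animals 1 to 3 and -0.068 to 0.038 with an animal left out, Cdkn1a gave -0.039 from its second probe and Cdkn1b 0.016 with the muscle covariate. Ex vivo, Rrm1 gave -0.090 from its second probe, and with the muscle covariate Cdkn1a gave 0.0098, Mki67 0.049 and Pcna -0.049. With an animal left out Mki67 gave -0.077 to 0.083 and Pcna -0.029 to 0.152, and without animals 3 and 4 they gave 0.036 and -0.042. The difference of effects for Cdkn1b was 0.049 from its second probe, and Top2a gave 0.066 between settings from its second probe.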
